A study of Homo sapiens with 6 samples.

Results

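Peptides shown on the cell surface by MHC class I molecules are made by a chain of dedicated proteins, and 10 of their genes were examined here in cells with and without BRCA2. The genes were B2M, TAP1, TAP2, TAPBP, PSMB8, PSMB9, PSMB10, ERAP1, ERAP2 and NLRC5, chosen by name. A gene was measured where a probe set carried its symbol and no other, and of the 13139 genes measured in this way 9 were members. PSMB9 was not analysed here because its probe set is also annotated to PSMB8-AS1. The cells were HCT116, a human colon carcinoma line, kept in McCoy's 5A medium with serum. The wild-type line came from a cell repository, and in the BRCA2 knockout cells both alleles of BRCA2, a gene of homologous recombination repair, had been targeted one after the other. The labels name no agent given to either genotype. Each genotype was represented by 3 whole-transcript arrays of total RNA depleted of ribosomal RNA. The titles call these arrays technical replicates, while the extraction protocol speaks of 3 frozen samples per genotype. Neither says that they came from separate cultures, so every p-value here reflects array-to-array spread, which may be technical, with a precision limited by the number of arrays. Each genotype was 1 line as far as the labels say, so the effect of losing BRCA2 and other ways in which the 2 lines diverge cannot be told apart.

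The proteasome cuts cellular proteins into peptides, and interferon replaces its catalytic subunits with PSMB8, PSMB9 and PSMB10, which changes where it cuts. TAP1 and TAP2 carry the peptides into the endoplasmic reticulum, where tapasin, the product of TAPBP, holds the transporter next to an empty class I molecule. The aminopeptidases ERAP1 and ERAP2 trim the peptides there, B2M is the light chain of every classical class I molecule, and NLRC5 is a transactivator of class I genes. Reduced expression of this machinery is a known route by which tumours of the colon escape T cells.

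Most members share a sequence feature in their promoters, the interferon-stimulated response element (ISRE), which binds factors of the IRF family. The choice by name did not use these letters. It did take genes of 1 pathway, with earlier results of these data known, so the members are no independent draw of genes. RefSeq windows of 300 bases (GRCh38.p14, 250 before and 50 after a start site) were available for 9 members, 13 windows in all. The ISRE letters were taken as GAAA, any 2 bases and GAAA again and searched on both strands. They occurred in 8 of the 13 windows, 1 for each of 8 members, against 3.57% of 35116 windows of this length. Windows of the same gene are not independent of each other. The letters TTCNNNGAA, the core of a gamma-activated site, occurred in a window of PSMB8 and in a second window of TAP1 (7.66% of all windows). The letters CCAAT occurred in a window each of ERAP1, TAP1, PSMB9 and B2M (34.6% of all windows). The GAAA letters of these matches are alike because the search asked for them, which is no result about the members. The stretches below show the matches with the bases around them. They read 5′ to 3′ on the gene's strand, start 25 bases before the match and end at the start site or the end of the match at the latest, and capitals mark the ISRE letters, where TTTC runs are the same letters on the other strand.
B2M (chr15:44711348-44711413, plus strand): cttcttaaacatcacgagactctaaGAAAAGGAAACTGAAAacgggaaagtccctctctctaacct
TAP1 (chr6:32853798-32853863, minus strand): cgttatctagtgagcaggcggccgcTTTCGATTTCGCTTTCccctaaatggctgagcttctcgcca
TAP2 (chr6:32838763-32838822, minus strand): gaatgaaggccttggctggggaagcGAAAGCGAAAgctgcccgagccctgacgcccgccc
TAPBP (chr6:33314079-33314123, minus strand): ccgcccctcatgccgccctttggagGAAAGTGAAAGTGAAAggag
PSMB8 (chr6:32844042-32844076, minus strand): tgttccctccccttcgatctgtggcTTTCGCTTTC
PSMB10 (chr16:67936851-67936896, minus strand): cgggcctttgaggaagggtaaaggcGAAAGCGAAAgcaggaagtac
ERAP1 (chr5:96807934-96807968, minus strand): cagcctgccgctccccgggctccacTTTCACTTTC
ERAP2 (chr5:96876445-96876499, plus strand): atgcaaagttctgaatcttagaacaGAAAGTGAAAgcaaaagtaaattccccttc
B2M, TAP1 and TAPBP each held 2 overlapping matches. In the order of RefSeq genes on chromosome 6, TAP2, PSMB8, TAP1 and PSMB9 are direct neighbours, with HLA-DOB on one side and HLA-DMB on the other, and ERAP1 and ERAP2 are neighbours on chromosome 5.

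None of the 9 measured members differed between the genotypes at an adjusted p under 0.05 in limma, where 0.570% of 19458 probe sets did. At an unadjusted p under 0.05 the count was also 0 of 9, against 12.2% of all probe sets. The test without moderation that the series design names also called 0 of 9 at an adjusted p under 0.05, where it called 0.442% of all probe sets. In the knockout, 6 members had a higher mean and 3 a lower one, and of the 13139 genes with a probe set 7184 had a higher one. The median log2 difference, knockout minus wild type, was 0.36 over the members, 0.07 over all genes with a probe set and 0.02 over all probe sets. The members' median rested on single arrays, and it was 0.05 without knockout array 2 and 0.04 without wild-type array 2, with 5 members higher in each case. For 1 member, TAP2, all knockout arrays lay above all wild-type arrays, against 12.0% of probe sets, and for none did they lie below (7.70%). After each array was shifted to a common median the first count was 2 (TAP2 and TAPBP, against 9.80% of probe sets), and after quantile normalization it was 3 (also PSMB8, 10.7%).

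**Figure D1:**
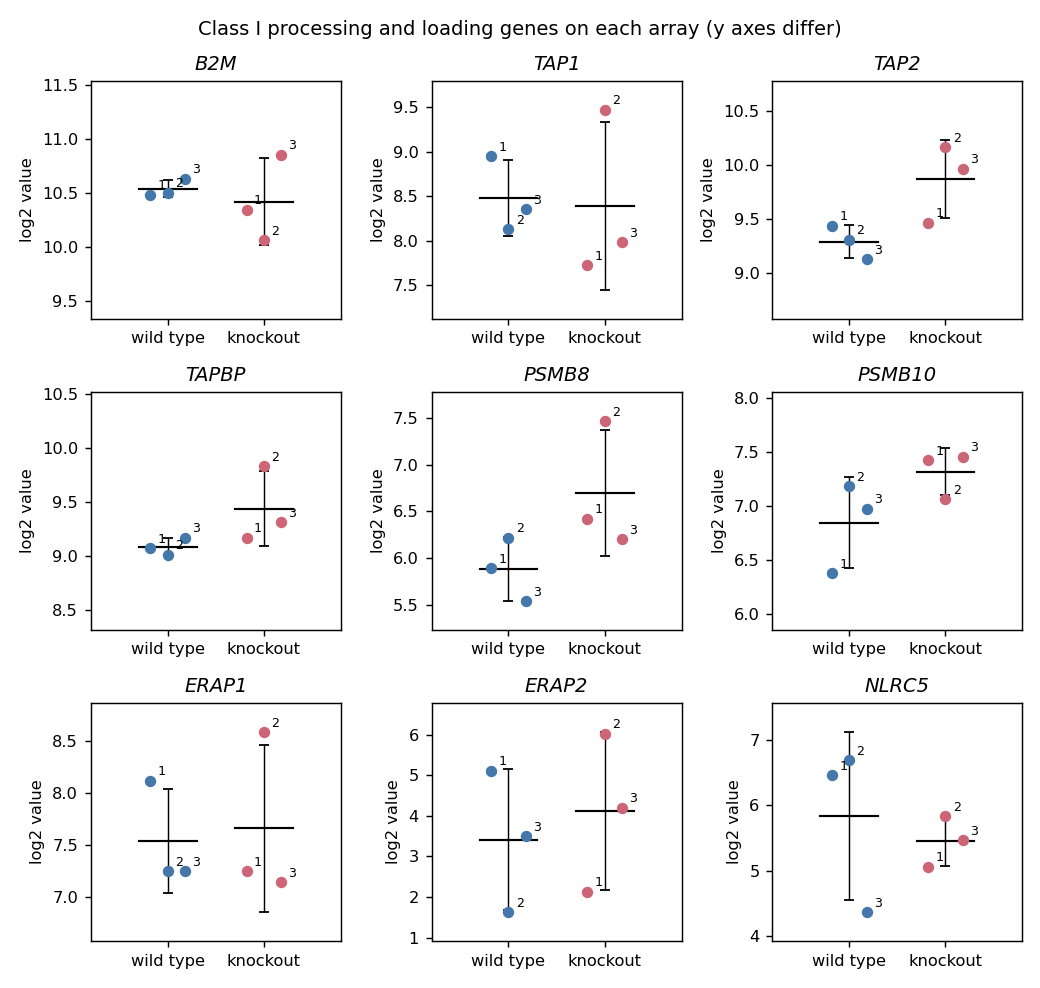
Log2 value of each of the 9 measured genes on each array (points, with the array number), with the mean (horizontal line) and SD (error bar) of 3 arrays per genotype. Knockout array 2 gave the highest of the 6 values for TAP1, TAP2, TAPBP, PSMB8, ERAP1 and ERAP2, and only the values of TAP2 do not overlap between genotypes.

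The transporter subunits differed in the order of their arrays. TAP2, the subunit that pairs with TAP1 to form the peptide channel, was at 9.44, 9.31 and 9.13 on wild-type arrays 1, 2 and 3 and at 9.47, 10.17 and 9.97 on the knockout arrays. The lowest knockout value was only 0.03 above the highest wild-type value. The log2 difference was 0.58 ± 0.28 (SE, n = 3 arrays per genotype; 95% interval -0.09 to 1.25; limma adjusted p = 0.475), or 1.5-fold.

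TAP1 was at 8.95, 8.13 and 8.35 in wild type and at 7.72, 9.47 and 7.98 in knockout. The highest and the 2 lowest of its 6 values were all from knockout arrays. This gave a log2 difference of -0.09 ± 0.50 (95% interval -1.27 to 1.10; limma adjusted p = 0.957), an interval from 0.414-fold to 2.14-fold. Its sign turned without wild-type array 1 (0.15), knockout array 1 (0.25) or knockout array 3 (0.11), and without knockout array 2 the difference was -0.63.

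TAPBP, whose product tapasin ties the transporter to class I molecules, was at 9.07, 9.01 and 9.17 in wild type and at 9.17, 9.83 and 9.31 in knockout. The wild-type arrays lay within 0.16 of each other, and the lowest knockout value equalled the highest wild-type value to the second decimal. TAPBP thus differed on the log2 scale by 0.36 ± 0.28 (95% interval -0.29 to 1.01; limma adjusted p = 0.648), and 0.16 without knockout array 2.

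Of the immunoproteasome subunits, PSMB8, which replaces the constitutive subunit PSMB5, had the largest difference of the 9 members. It was at 5.89, 6.22 and 5.54 in wild type and at 6.42, 7.47 and 6.20 in knockout. The genotypes overlapped by 0.02, between knockout array 3 and wild-type array 2. The PSMB8 probe set was dim, with a mean level at percentile 29.0 of all probe sets. The log2 difference was 0.81 ± 0.40 (95% interval -0.13 to 1.76; limma adjusted p = 0.478), or 1.76-fold, and it was 0.43 without knockout array 2.

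PSMB10, which replaces PSMB7, was at 6.38, 7.19 and 6.98 in wild type and at 7.43, 7.07 and 7.46 in knockout. The arrays overlapped, since knockout array 2 lay below wild-type array 2. Its difference on the log2 scale was 0.47 ± 0.31 (95% interval -0.26 to 1.19; limma adjusted p = 0.586), and 0.23 without wild-type array 1.

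**Figure D2:**
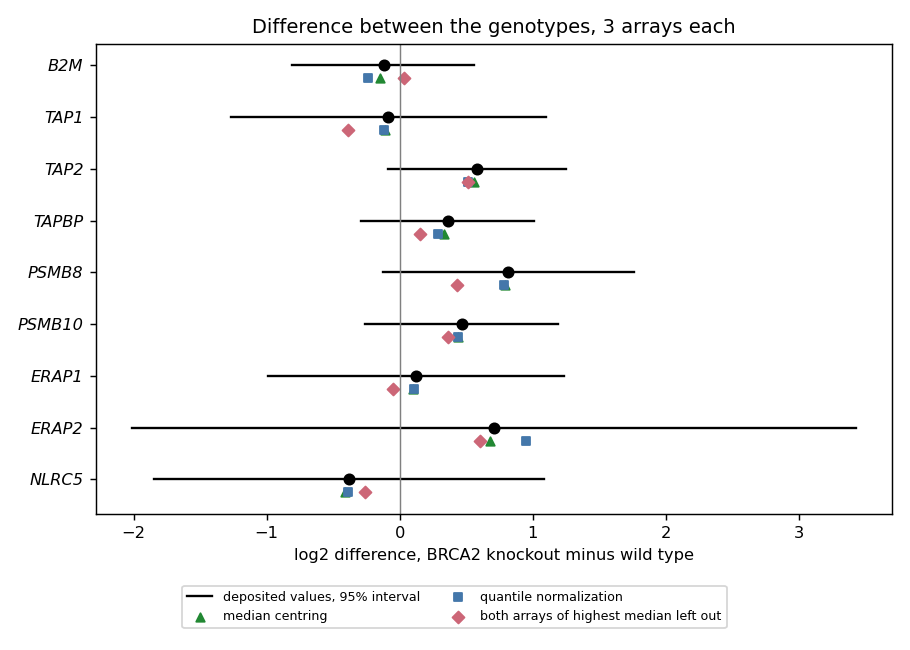
Log2 difference, BRCA2 knockout minus wild type, for each gene as deposited (black point, with the 95% interval of the limma fit on 3 arrays per genotype) and under 3 alternatives (coloured symbols). Every interval includes 0, from the widest, ERAP2 (-2.01 to 3.43), to TAPBP (-0.29 to 1.01).

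The exchange of subunits in the proteasome itself was not measured, only RNA. The RNA values of the subunits were compared within each array. The measure was the log2 value of the immunoproteasome subunit minus that of the constitutive subunit it replaces. A shift of a whole array cancels in this difference, and only its change between genotypes can be read, since probe sets differ in response. PSMB8 minus PSMB5 was -3.32, -3.53 and -4.02 on the wild-type arrays and -2.88, -1.97 and -3.12 on the knockout arrays, so the genotypes did not overlap. The change was 0.97, with p = 0.1 in a two-sided exact permutation test (0.2 adjusted over the 2 pairs tested), and 3 arrays per genotype cannot give a smaller p than 0.1. It was 0.63 without knockout array 2. PSMB5 itself was at 9.21, 9.75 and 9.56 in wild type and at 9.29, 9.43 and 9.32 in knockout, a log2 difference of -0.16 ± 0.26 (limma adjusted p = 0.836). PSMB10 minus PSMB7 was -5.29, -4.53 and -4.97 in wild type and -4.39, -4.72 and -4.51 in knockout. Here the arrays overlapped, with a change of 0.39 (exact permutation p = 0.2, and 0.2 adjusted), and of 0.21 without wild-type array 1. The pair of PSMB9 and PSMB6 was not analysed here.

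**Figure D3:**
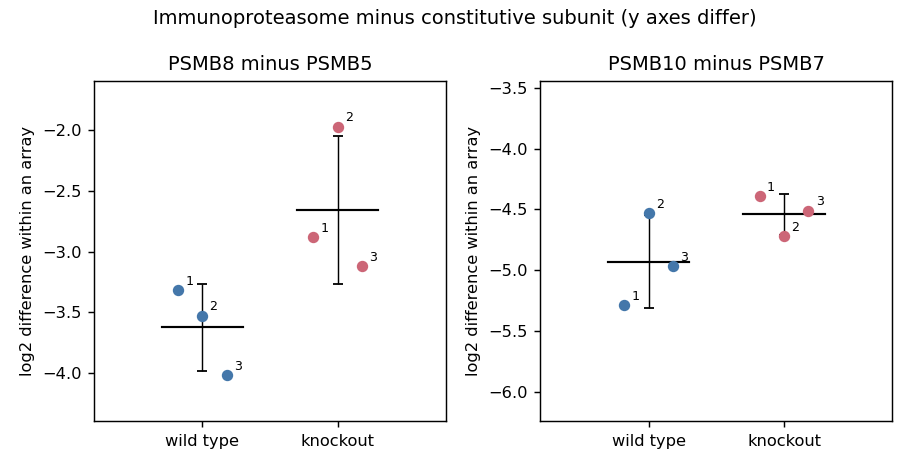
Log2 value of the immunoproteasome subunit minus that of its constitutive counterpart within each array (points, with the array number), with mean and SD of 3 arrays per genotype. For PSMB8 minus PSMB5 the knockout arrays (-3.12 to -1.97) lie above the wild-type arrays (-4.02 to -3.32), and for PSMB10 minus PSMB7 the genotypes overlap.

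The trimming enzymes varied more between arrays of 1 genotype than between the genotypes. ERAP1, the main aminopeptidase of the endoplasmic reticulum, was at 8.12, 7.25 and 7.25 in wild type and at 7.25, 8.59 and 7.14 in knockout. In 4 of the 6 arrays it lay between 7.14 and 7.25, and wild-type array 1 and knockout array 2 were above this range. The log2 difference was 0.12 ± 0.47 (95% interval -0.99 to 1.23; limma adjusted p = 0.935). It was -0.02 without wild-type array 2 or wild-type array 3, -0.34 without knockout array 2 and 0.41 without wild-type array 1.

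ERAP2, a relative of ERAP1 with another preference for the residue it removes, was at 5.11, 1.63 and 3.50 in wild type and at 2.13, 6.02 and 4.20 in knockout. It varied by 3.48 within the wild type and by 3.89 within the knockout, more than any other member, and 3 of the 6 values were under 4, near the bottom of the scale. The log2 difference of 0.71 ± 1.15 (95% interval -2.01 to 3.43; limma adjusted p = 0.835) was smaller than this spread. It was 0.37 with values under 4 set to 4, and with single arrays left out it was -0.18 (wild-type array 2), -0.24 (knockout array 2), 1.56 (wild-type array 1) and 1.70 (knockout array 1).

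B2M, the light chain, was at 10.48, 10.50 and 10.63 in wild type and at 10.34, 10.06 and 10.85 in knockout. The wild-type arrays lay inside the range of the knockout arrays, which held both the highest and the lowest value. Between the genotypes B2M differed on the log2 scale by -0.12 ± 0.29 (95% interval -0.81 to 0.56; limma adjusted p = 0.887). It was 0.05 without knockout array 2, -0.34 without knockout array 3 and -0.08 without wild-type array 3.

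NLRC5, the transactivator of the class I genes, was at 6.46, 6.69 and 4.37 in wild type and at 5.06, 5.83 and 5.47 in knockout. Wild-type array 3 was the lowest of the 6 and the other wild-type arrays the highest, so the knockout values lay between them. The log2 difference was -0.38 ± 0.62 (95% interval -1.85 to 1.08; limma adjusted p = 0.834). It was -1.12 when wild-type array 3 was left out, -0.07 when wild-type array 1 was, -0.19 when knockout array 1 was and 0.04 when wild-type array 2 was, and it was 0.67 with array weights.

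The arrays differed as wholes, and several members, though not all, were highest on the arrays of highest median. Array medians ran from 7.36 to 7.80, and the highest were those of wild-type array 1 (7.71) and knockout array 2 (7.80). Knockout array 2 gave the highest value of the knockout arrays for 7 of the 9 members, all but B2M and PSMB10, and wild-type array 1 gave the highest of the wild-type arrays for TAP1, TAP2, ERAP1 and ERAP2. For TAP1, knockout array 2 exceeded the mean of the other knockout arrays by 1.62, and for ERAP1 by 1.39, against a median of 0.28 over all probe sets. In wild-type array 1 the corresponding excess was 0.71 for TAP1 and 0.87 for ERAP1, against a median of 0.20. With wild-type array 1 first, both were also positive for TAP2 (0.22 and 0.45), ERAP2 (2.54 and 2.86) and NLRC5 (0.94 and 0.57). They were 0.01 and 1.16 for PSMB8 and -0.02 and 0.59 for TAPBP. Both were negative for B2M (-0.09 and -0.54) and PSMB10 (-0.71 and -0.38). As a description, knockout array 2 was set against wild-type array 1, and the other 4 arrays against each other. Both arrays were singled out from the values themselves, and the first set is 1 array against 1, with no spread and no test. In this split 5 members, TAP2, TAPBP, PSMB8, PSMB10 and ERAP2, had a higher knockout value in both sets, and NLRC5 a lower one in both. For TAP2 the log2 differences were 0.73 and 0.51, and for PSMB8 1.58 and 0.43. B2M (-0.43 and 0.03), TAP1 (0.51 and -0.39) and ERAP1 (0.47 and -0.05) went opposite ways.

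**Figure D4:**
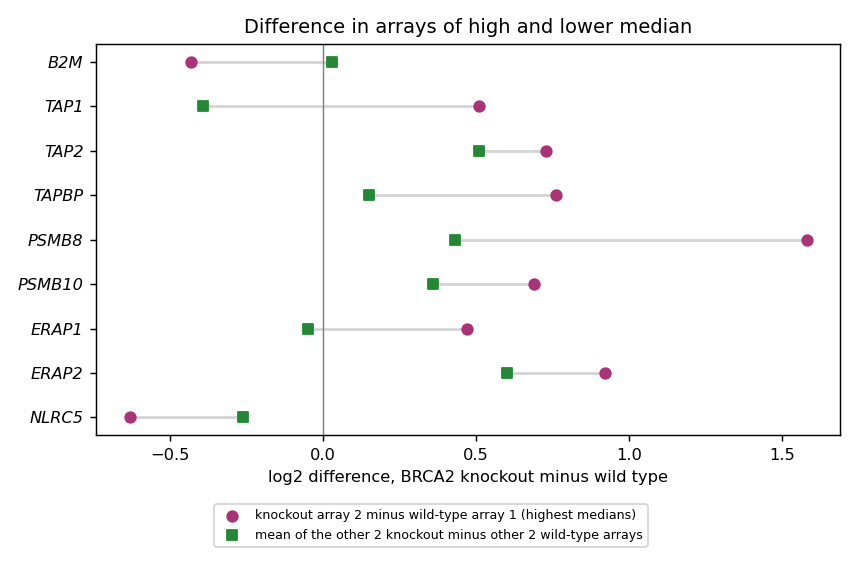
Log2 difference, BRCA2 knockout minus wild type, between the arrays of highest median (circles, knockout array 2 minus wild-type array 1) and between the means of the other arrays (squares, 2 per genotype). The circle and the square lie on opposite sides of 0 for B2M, TAP1 and ERAP1.

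The genes whose log2 values most resembled a member over the 6 arrays were sought among all genes with a probe set, as a description. TAP2, the member with the largest moderated t, was most like the initiator caspase gene CASP9 (Pearson r = 0.9943 over the 6 arrays), the translation initiation factor gene EIF3B (0.9936) and the zinc finger gene ZKSCAN1 (0.9935). B2M was most like the calcium sensor gene NCALD (0.9819), the urokinase gene PLAU (0.9725) and ANAPC4, a subunit gene of the anaphase-promoting complex (0.9703). None of these 6 genes was called in limma (adjusted p between 0.397 and 0.957). The 6 points share the array differences just described, which enter every such correlation. Each r is also among the highest of 13139 genes over only 6 points, so a high r follows from the search itself.

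Other genes of the class I pathway were read from the same fit in 6 lists of 66 genes, 47 of them measured. None of the 47 was called in limma, and at an unadjusted p under 0.05 there were 4 higher and 2 lower (12.2% of all probe sets in either direction). The median log2 difference was 0.01, with 24 above 0 and 23 below. For 6 genes the knockout arrays lay above the wild-type arrays without overlap (12.0% of all probe sets) and for 2 below (7.70%).

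Transcription factors of the class I promoters held the largest difference of the 6 lists. IRF1, which binds the ISRE in many class I pathway promoters, was at 8.23, 7.89 and 8.07 in wild type and at 9.06, 9.51 and 9.36 in knockout. All knockout arrays were above all wild-type arrays, by at least 0.83. The log2 difference was 1.25 ± 0.26 (95% interval 0.64 to 1.86; limma adjusted p = 0.125), and it was 1.28 between the arrays of highest median and 1.24 between the others. IRF1 passed the threshold with a variance trend (adjusted p = 0.0341) and with array weights (0.0279), and its adjusted p over all 17 alternatives ran up to 0.648. IRF9, a DNA-binding factor of the type I interferon response, was at 8.56, 7.86 and 8.28 in wild type and at 9.09, 9.27 and 9.16 in knockout, a log2 difference of 0.94 ± 0.28 (95% interval 0.29 to 1.60; limma adjusted p = 0.240). Of 10 measured factors 6 were higher and 4 lower (median 0.10, and -0.16 to 0.25 with single arrays left out). CIITA, the relative of NLRC5 that drives class II genes, differed by 0.11 ± 0.44, and RFX5, a subunit of the RFX complex that recruits both, by -0.34 ± 0.49.

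Proteasome activators and assembly factors had a median log2 difference of 0.33, with 5 of 7 measured genes higher and 0 called. The assembly chaperone gene PSMG3 was at 0.69 ± 0.26 (limma adjusted p = 0.352) and the activator gene PSME3 at 0.58 ± 0.24 (0.392), both without overlap between the genotypes. The list's median was 0.09 when wild-type array 2 was left out and 0.53 when knockout array 3 was. The constitutive proteasome core had 8 of 13 measured subunits higher, 5 lower and a median of 0.08 (0.02 to 0.15 with single arrays left out). Its largest differences were -0.50 ± 0.31 in PSMA2 and 0.36 ± 0.28 in PSMB6.

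Heavy chains and related class I molecules were represented by 5 of 10 genes, 1 higher and 4 lower (median -0.07, and -0.48 to -0.02 with single arrays left out). Among them HFE, which regulates iron uptake, was at -0.72 ± 0.44 and MICB, a ligand of the NKG2D receptor, at -0.18 ± 0.32. Chaperones of glycoprotein folding and class I loading had 2 of 6 measured genes higher (median -0.30, and -0.42 to -0.07 with single arrays left out). The glucosidase II subunit gene PRKCSH was at -0.66 ± 0.24 (limma adjusted p = 0.349), with the knockout arrays below the wild-type arrays, and the folding sensor gene UGGT1 at -0.47 ± 0.44. Other peptidases had 2 of 6 measured genes higher (median -0.01, and -0.43 to 0.18 with single arrays left out). THOP1, a cytosolic enzyme that degrades peptides, was at -0.65 ± 0.26 (limma adjusted p = 0.383), with the knockout arrays below the wild-type arrays, and TPP2 at -0.45 ± 0.50.

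**Figure D5:**
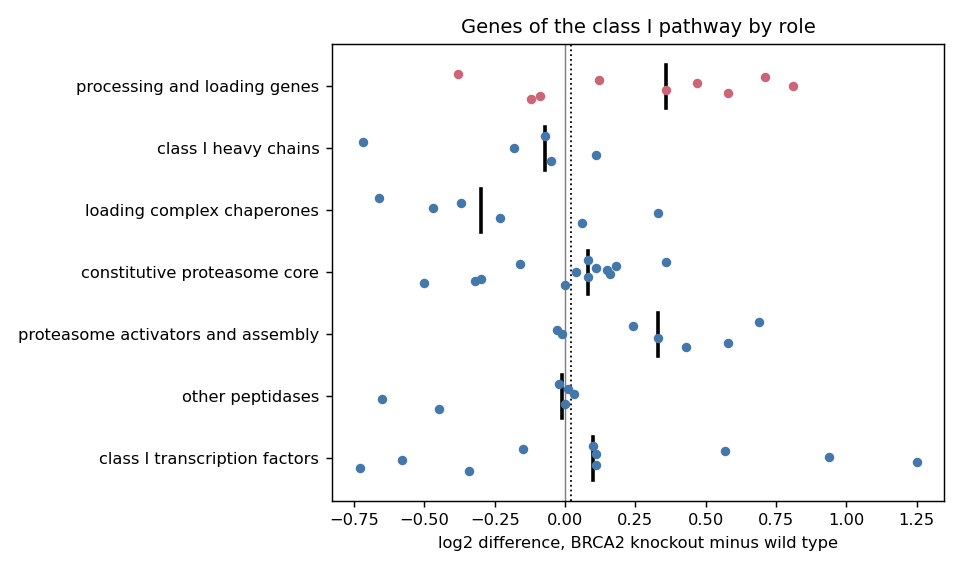
Log2 difference, BRCA2 knockout minus wild type, of each measured gene (points) in the processing and loading genes and 6 further lists, with the median of each list (black bar) and of all probe sets (dotted line, 0.02). The median was 0.36 for the processing and loading genes (0.05 without knockout array 2 and 0.04 without wild-type array 2) and lay between -0.30 and 0.33 in the other lists, and IRF1 (1.25) is the point farthest to the right.

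The labelled cell type was checked against markers. The colon epithelium markers KRT8, KRT18, KRT19, CDH1 and EPCAM were between 9.47 and 12.80 on the wild-type arrays and between 9.75 and 13.11 on the knockout arrays, and no marker of that list was called. These 5 were singled out after their values were seen. The other 8 markers, among them the intestinal genes CDH17, VIL1, KRT20 and CDX1, had wild-type means of 4.44 to 7.73 and knockout means of 5.05 to 8.20. Of the 13 epithelial markers 11 were higher in the knockout (median log2 difference 0.31). For KRT8, KRT18, KRT19 and CDH1 the knockout arrays lay above the wild-type arrays without overlap, as they did for 12.0% of all probe sets. The mean over all 13 epithelial markers ran from 7.89 to 8.30 in wild type and from 8.03 to 8.64 in knockout. Markers of antigen-presenting and other blood cells, which carry high levels of this machinery, were measured for 15 of 18 genes, with means of 5.72 to 6.20 in wild type and 6.13 to 6.41 in knockout. The pan-leukocyte gene PTPRC was between 4.87 and 6.01 on the wild-type arrays and between 5.15 and 6.50 on the knockout arrays. It does not stand for the list. Means of single genes ran from 3.74 (CD2) to 8.62 (CD68) in wild type. In the knockout they ran from 4.20 (CD86) to 9.13 (CD68). Of these 15 genes 10 were higher in the knockout and 0 were called, and for fibroblast and endothelial markers these counts were 7 of 9 and 0. The median log2 differences were 0.42 and 0.36. The median of each marker list was thus above 0, but its array means overlapped between the genotypes. For fibroblast and endothelial markers these means ran from 6.02 to 6.91 in wild type and from 6.22 to 7.15 in knockout. Knockout arrays lay above without overlap for CD68, CD8A, LCP1 and COL1A1, and below for HLA-DPB1 (7.70% of all probe sets). The part of other cell types in the values of the class I genes was not tested. BRCA2 itself was not analysed here, so the genotype labels were not checked against it.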

How the data were processed

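The deposited values are log2 probe set values that the authors summarised, 19458 per array for 6 arrays; the log2 scale was taken from their range. Per the submitters' processing notes the tools were RMA and R 2.11.1, with the build hg18; the RMA steps and any filter are not given in the sources used here. Names came from the platform annotation, in which 13301 probe sets had 1 symbol, 2044 several and 4113 none; symbols were updated through 13280 identifiers in a RefSeq table of GRCh38.p14. Where several probe sets carried 1 gene's symbol, that of highest mean was used. The genotypes were compared with limma 3.58.1 in R 4.3.3 (lmFit and eBayes), genotype as single factor, with Benjamini-Hochberg adjustment over all probe sets and no filter. Subunit pairs were compared by exact permutation tests (scipy 1.17.1). The code was tested on simulated data. The alternatives were median centring, quantile normalization, a floor of 4, leaving out the dimmest 30% of probe sets, variance trend, robust variance, no moderation, a block for the replicate number, array weights, leaving out arrays, and averaging probe sets.

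The members and lists were chosen with earlier results of these data known. The genes named are all members, the 2 genes of largest difference in each list, those of the subunit pairs, and 3 genes most like TAP2 and B2M. CIITA, RFX5 and single markers were named after their values were seen.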

Additional observations from a re-analysis of the deposited data

How the results depend on the processing

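No member was called under any of the 17 alternatives, in which the lowest adjusted p was 0.143. TAP2, TAPBP, PSMB8 and PSMB10 kept a positive difference in each alternative run, and 13 of 150 member values, all in the other 5 genes, turned sign. With single arrays left out, the differences ran from -0.34 to 0.05 for B2M, -0.63 to 0.25 for TAP1, -0.34 to 0.41 for ERAP1, -0.24 to 1.70 for ERAP2 and -1.12 to 0.04 for NLRC5. Without both arrays of highest median, B2M was at 0.03 and ERAP1 at -0.05, and with array weights NLRC5 was at 0.67. PSMB8, ERAP2 and NLRC5 have no value without the dimmest 30% of probe sets, as they are among them. Over all probe sets, 111 were called as deposited, 175 after median centring, 174 after quantile normalization, 169 with values under 4 set to 4, 184 without the dimmest 30%, 396 with a variance trend, 778 with array weights, 24 to 63 with single arrays left out and 7 without both arrays of highest median; 73.0% of the calls were higher in the knockout as deposited, 58.4% with array weights, 81.4% without moderation and 58.7% to 96.0% with single arrays left out. Among the other pathway genes 1, IRF1, was called with a variance trend and 1, IRF1, with array weights. The cause of these shifts was not tested.

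Arrays of the same number did not deviate together (r of deviations from the genotype means over probe sets -0.238, -0.427 and 0.0582), and wild-type array 1 went with knockout array 2 (0.489). The deviations within a genotype sum to 0, so these r values depend on one another. Whether arrays of the same number shared a preparation was not tested. With the replicate number as a block, 3 probe sets, all higher in the knockout, and 0 members were called.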
